A study of Mus musculus with 54 samples.

Results

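Spink1, Fxyd2, Tmem27, Itm2b and Ttr are 5 transcripts that are abundant in mouse kidney and that appeared in barcodes of cell types not known to make most of them. They are 5 of the 33126 genes listed in at least 1 of the files of the series. They were chosen by measured values, namely their share of the UMIs (unique molecular identifiers, each standing for 1 captured transcript) in non-tubule barcodes of methanol-fixed against fresh cells, and of nuclei prepared in different ways. These contrasts are therefore given as a description with no test, and tests are limited to other contrasts. Some of these still share their fresh libraries with the methanol contrast. They are cryopreserved against fresh male cells, warm against cold fresh cells, and the interaction of cryopreservation and dissociation. The p-values of these tests are thus not independent of the choice.

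The proximal tubule takes back most of the filtered solutes, and its cells are among the most numerous in the kidney and are rich in RNA. In a droplet assay, RNA that has left its cell can be captured together with another cell, so an abundant tubule transcript can be counted in a barcode whose cell does not make it. Spink1 encodes a Kazal-type serine protease inhibitor. Fxyd2 encodes the gamma subunit of the sodium pump, the Na,K-ATPase that drives tubular reabsorption. Tmem27, named Cltrn in newer annotations, encodes collectrin, a membrane protein that carries amino acid transporters to the brush border of the proximal tubule. Itm2b encodes BRI2, a membrane protein made by many cell types. Ttr encodes transthyretin, a carrier of thyroxine and of retinol-binding protein.

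In the GRCm38 annotation all 5 are protein-coding genes with 0 overlapping genes. Spink1 lies on chromosome 18 from 43728082 to 43737557 on the minus strand and Ttr on the same chromosome from 20665280 to 20674321 on the plus strand. Fxyd2 lies on chromosome 9 from 45399669 to 45410278 on the plus strand, Tmem27 on chromosome X from 164088830 to 164118860 on the plus strand, and Itm2b on chromosome 14 from 73362226 to 73385289 on the minus strand.

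The study compared ways of taking apart and storing whole adult kidney before single-cell or single-nucleus RNA-seq, with 39 10x libraries and 15 bulk RNA-seq libraries in 18 groups of 3. C57BL/6J males of 19 weeks, given in the methods as AFAPIL.1DEL mice, gave cells dissociated cold (a protease active on ice) or warm (a heated enzyme kit), each run fresh, cryopreserved in serum with DMSO, or methanol-fixed, with version 2 chemistry. Balb/c males of 18 weeks gave cold-dissociated fresh cells and nuclei washed 3 times at 500 g, also with version 2 chemistry. Balb/c females of 15 weeks, former breeders, gave cold-dissociated fresh and cryopreserved cells and 3 kinds of nuclei with version 3 chemistry, namely nuclei sorted by fluorescence after 3 washes at 500 g (3x500g), nuclei sorted after 1 wash at 2000 g (1x2000g), and nuclei from a sucrose gradient. The nuclei came from flash-frozen kidneys. None of the mice had been treated, all came from other ongoing work, and the methods give the C57BL/6J males and the Balb/c males as 1 litter each. Bulk libraries were made from cold and warm C57BL/6J suspensions, from intact kidneys of Balb/c males and from intact kidneys and cold suspensions of Balb/c females. The C57BL/6J and Balb/c male sets differ in strain, age and experiment, and the female set differs from the Balb/c male set in sex, age, chemistry and experiment. These cannot be told apart, so all comparisons were made within a set.

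The 10x libraries held 782 to 9308 barcodes and 983522 to 35170947 UMIs, and the bulk libraries 2326998 to 31093949 reads on genes. Barcodes were put in a class when they held at least 3 markers of it and more of its markers than of any other class, which placed between 52.3% and 92.8% of the barcodes of a group. In endothelial-like barcodes all 16 endothelial markers were detected in every group, with a sum of 90.3 to 197 per 10000 UMIs, and macrophage markers summed to 0.337 to 13.5. No doublet caller was run, and results that turn on barcodes holding at least 3 markers of a second class are given with and without them. Libraries shared at most 101 barcode sequences, or 2.05% of the smaller library. Values are UMIs of a gene per 10000 UMIs of nuclear genes, called the share below, summed over the barcodes of a class in a library. The 3 libraries of a group were biological replicates from different mice, and p-values measure the spread between them.

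In cold-dissociated fresh C57BL/6J cells, 3 of the 5 transcripts belonged to the proximal tubule-like class and 2 did not. The share of Spink1 was 81.4 ± 6.07 (SD, n = 3) in proximal tubule-like barcodes, and the next class was macrophage-like at 7.04 ± 3.57, followed by endothelial-like at 6.27 ± 2.87. The last pair did not differ beyond its spread. Tmem27 was at 23.6 ± 2.1 in the proximal tubule-like class and at 1.78 ± 0.58 in the next, the class of the distal convoluted and connecting tubule. Ttr was at 6.13 ± 2.38 in the proximal tubule-like class and at 0.535 ± 0.43 in endothelial-like barcodes.

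Fxyd2 was high in 4 of the tubule classes. Its share was 171 ± 11.7 in the distal convoluted and connecting tubule class, 128 ± 4.6 in the proximal tubule-like class, 116 ± 12 in intercalated-like barcodes and 83.3 ± 19.8 in the class of the thick ascending limb. Proximal tubule-like and intercalated-like barcodes overlapped in their spread. Below a gap came principal-like barcodes at 25.5 ± 6.1, macrophage-like at 17.5 ± 5.9 and endothelial-like at 14.2 ± 5.4, and neighbors in this lower part of the order did not differ beyond their spread.

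The values of Itm2b went against the name of tubule transcript. Its share was highest in podocyte-like barcodes at 133 ± 26.8, then intercalated-like at 51.3 ± 3.3, principal-like at 37.1 ± 8.7 and endothelial-like at 30.2 ± 12. The proximal tubule-like class had the lowest share of the 10 classes, 9.37 ± 1.08, close to the lymphocyte-like 9.80 ± 1.7. In female nuclei of the 3x500g protocol Itm2b was again lowest in the proximal tubule-like class, at 1.12 ± 0.10, and highest in podocyte-like nuclei, at 4.59 ± 1.1. In warm fresh C57BL/6J and in female fresh cells the lymphocyte-like class was lowest, at 10.1 ± 1.4 and 13.8 ± 3.1, next to the proximal tubule-like class at 10.5 ± 0.28 and 15.6 ± 1.2, and these pairs did not differ beyond their spread. Since its share in endothelial-like barcodes was above that in the proximal tubule, Itm2b served in the following as a transcript of another distribution beside the other 4.

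**Figure D1:**
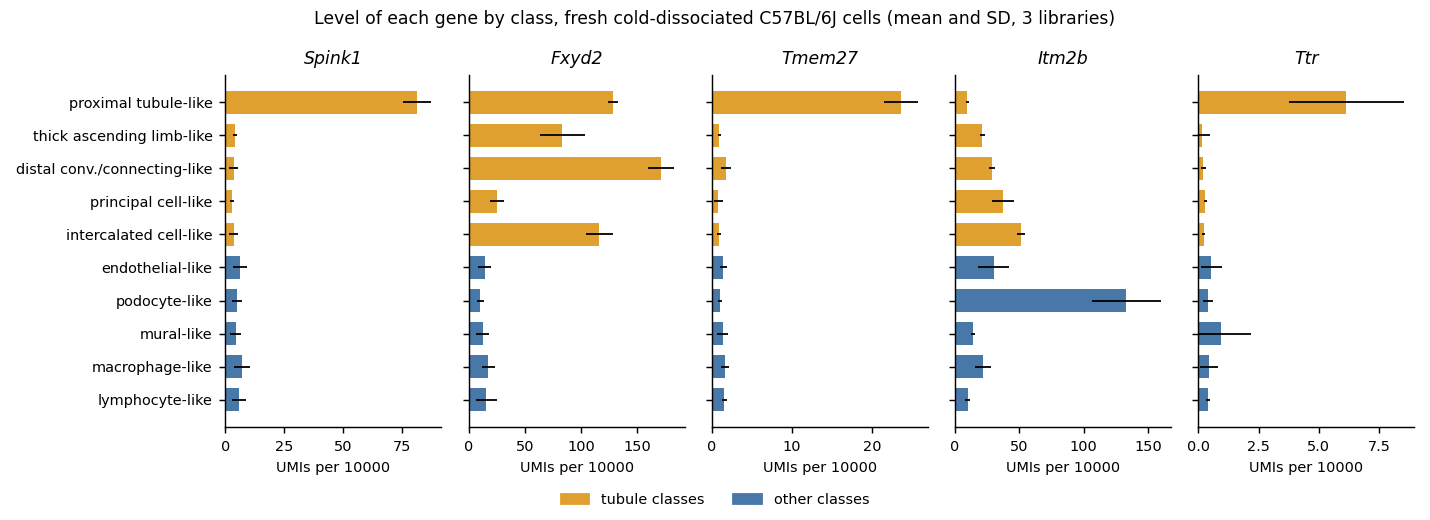
Share of each transcript (UMIs per 10000, a linear axis of its own for each transcript) by class in cold-dissociated fresh C57BL/6J cells, as bars of the mean with the SD over 3 libraries and with tubule and other classes in different colors. Bars of Spink1 and Tmem27 stand far higher in the proximal tubule-like class (81.4 and 23.6) than elsewhere, Fxyd2 is high in 4 tubule classes, and Itm2b is lowest in the proximal tubule-like class (9.37).

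Bulk read counts grow with transcript length, so they were divided by the exon length of each annotated gene. That length was 4005 bases for Fxyd2 and 729 for Spink1, and the order of the genes depends on it. It is a length given per gene, and the length of the transcripts present in these samples was not measured. By UMIs the order was another one, with Fxyd2 at 128, Spink1 at 81.4 and Tmem27 at 23.6 in proximal tubule-like barcodes of cold fresh C57BL/6J cells. The cause of the difference was not tested. In cold C57BL/6J suspensions Tmem27 stood at 806 ± 43.1 CPM (counts scaled to equal library totals) per kilobase of exon (SD, n = 3), Itm2b at 298 ± 7.92, Fxyd2 at 168 ± 4.41, Spink1 at 160 ± 20.4 and Ttr at 61.0 ± 20.2. On this divided scale Fxyd2 and Spink1 did not differ beyond their spread. Before the division Tmem27 was at 1245 CPM in the same suspensions, Fxyd2 at 671 and Spink1 at 116, so their likeness rests on the divisor. In intact female Balb/c kidneys the order was Tmem27 at 701 ± 39.2, Itm2b at 436 ± 10.5, Spink1 at 256 ± 17.8, Fxyd2 at 227 ± 12.7 and Ttr at 60.5 ± 17.6. Intact male Balb/c kidneys gave 582 ± 57 for Tmem27, 273 ± 18.6 for Itm2b, 229 ± 72.7 for Spink1, 157 ± 23.5 for Fxyd2 and 108 ± 45.5 for Ttr. All 5 transcripts were thus present in intact tissue that had not been dissociated. In bulk samples fewer cells of a type and less RNA per cell cannot be told apart.

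Methanol-fixed cells were one of the contrasts that chose the transcripts. In endothelial-like barcodes of cold-dissociated cells the share of Fxyd2 was 9.79, 12.4 and 20.2 in the 3 fresh libraries and 50.4, 65.2 and 62.7 in the fixed ones. Spink1 was at 3.74, 5.67 and 9.39 fresh and at 14.5, 26.0 and 30.9 fixed. Tmem27 was at 1.62, 0.958 and 1.72 fresh and at 4.09, 6.46 and 6.21 fixed. For these 3 transcripts every fixed library was above every fresh one. Ttr, at far lower shares of 0.125, 0.986 and 0.494, also lay lower in fresh than in fixed libraries, at 1.61, 2.30 and 1.90. The ratio of the means was 4.20 for Fxyd2, 3.80 for Spink1, 3.90 for Tmem27 and 3.63 for Ttr. Taken within each suspension the ratio ran from 3.10 to 5.24 for Fxyd2, from 3.29 to 4.59 for Spink1 and from 2.53 to 6.74 for Tmem27. Itm2b differed less, with 43.9, 25.2 and 21.5 fresh against 46.7, 34.8 and 32.2 fixed, a ratio of 1.25 and groups that overlapped. Within each suspension its ratio ran from 1.06 to 1.50, so it was also higher in every fixed library of a pair.

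The same 4 transcripts were higher in fixed macrophage-like barcodes of the cold protocol, at 3.36 times the fresh share for Fxyd2, 3.35 for Spink1, 3.35 for Tmem27 and 4.71 for Ttr, against 1.26 for Itm2b. Lymphocyte-like barcodes gave 3.35 for Fxyd2, 3.73 for Spink1 and 3.04 for Tmem27. In the proximal tubule-like class itself the ratios were close to 1, at 0.961 for Spink1, 1.11 for Fxyd2, 1.27 for Tmem27 and 1.29 for Ttr, while Itm2b stood at 1.41. The ratios of these 4 were thus larger in non-tubule barcodes than in the tubule barcodes of the same libraries, with no test.

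With warm dissociation the 3 leading transcripts were again higher in fixed than in fresh endothelial-like barcodes, at smaller ratios than with cold dissociation. Endothelial-like Fxyd2 was at 11.3, 23.9 and 16.4 fresh and at 55.6, 51.4 and 51.1 fixed, a ratio of 3.06. Spink1 was at 3.44, 11.4 and 4.82 fresh and at 14.4, 19.9 and 12.9 fixed, a ratio of 2.40, and Tmem27 had a ratio of 1.70. Fixed and fresh libraries did not overlap for these 3, although the third fixed library held only 11 endothelial-like barcodes. Ttr had a ratio of 3.19 and Itm2b one of 1.09 with overlapping groups, and of 1.06 to 1.14 within each suspension. In macrophage-like barcodes the ratios were 2.42 for Fxyd2, 2.04 for Spink1 and 1.54 for Tmem27, the last with overlapping groups, and 5.95 for Ttr. Warm lymphocyte-like barcodes, over the 2 fixed libraries that held at least 10 of them, gave 3.81 for Fxyd2, 2.77 for Spink1, 2.79 for Tmem27 and 6.47 for Ttr, of which Fxyd2 and Ttr lay above the cold ratios of 3.35 and 4.23. In the same endothelial-like barcodes the 8 distal tubule transcripts summed to 8.93 to 40.3 in warm fresh and 25.4 to 150 in warm fixed cells, and to 4.37 to 9.31 in cold fresh and 26.3 to 35.2 in cold fixed cells. Their part in the Fxyd2 values was not tested.

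**Figure D2:**
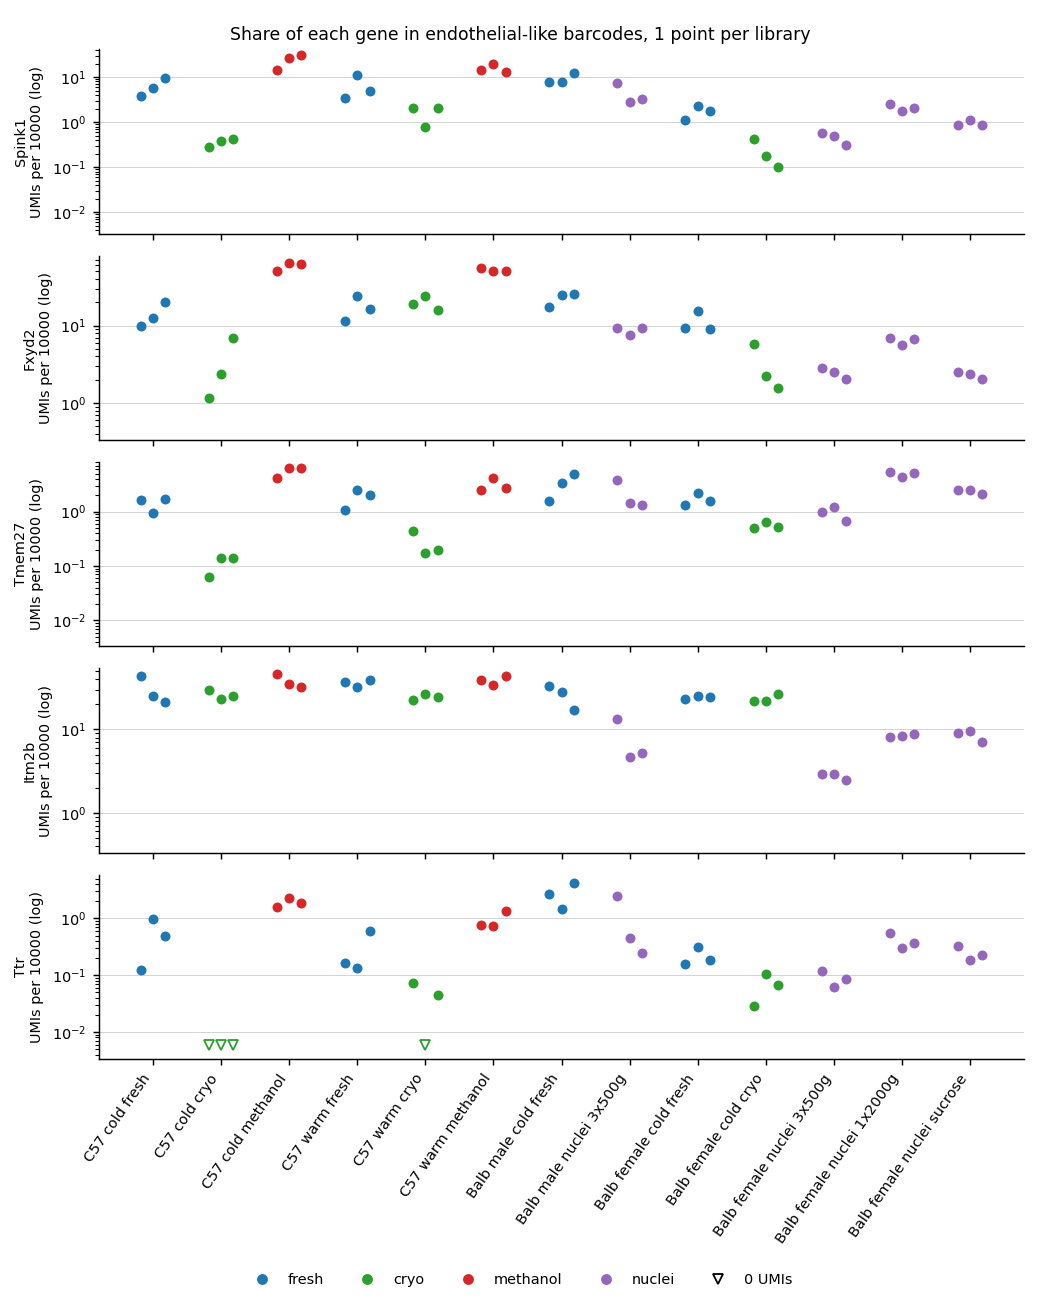
Share of each transcript (UMIs per 10000, log axis) in endothelial-like barcodes of all 13 10x groups, 1 point per library, colored by fresh, cryopreserved, methanol-fixed or nuclei, with open triangles for libraries with 0 UMIs. Fxyd2 of the 6 methanol-fixed libraries lies between 50.4 and 65.2, above all other groups, and Itm2b of the same libraries overlaps the fresh ones.

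Expressed against the proximal tubule-like class of the same library, the endothelial-like share of Fxyd2 was 11.1% ± 4.4 in cold fresh cells and 41.9% ± 6.0 in cold fixed cells. For Spink1 the values were 7.58% ± 3.04 and 30.1% ± 8.8, and for Tmem27 6.16% ± 2.1 and 19.04% ± 5.9. Warm cells went from 14.0% fresh to 34.7% ± 1.6 fixed for Fxyd2 and from 8.64% to 22.2% ± 5.1 for Spink1. The endothelial-like share of Itm2b was 317% ± 94 of that of the proximal tubule in cold fresh cells and 285% in cold fixed cells.

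Fxyd2 was found in most endothelial-like barcodes after fixation. Depth was made equal by thinning each barcode to 500 UMIs and leaving out shallower ones, 833 of 17373 endothelial-like barcodes over all libraries. At that depth 37.5%, 39.2% and 59.9% of cold fresh endothelial-like barcodes held Fxyd2 (701 barcodes kept, 71 left out), against 95.5%, 91.5% and 92.2% of cold fixed ones (459 kept, 22 left out). Before thinning the shares were 61.3% to 74.5% fresh and 97.8% to 100% fixed. Proximal tubule-like barcodes stood at 99.1% to 99.4% fresh and 99.8% to 100% fixed, a measure near its ceiling there. Macrophage-like barcodes gave 42.5%, 39.2% and 56.1% fresh and 88.7%, 92.1% and 95.0% fixed.

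Spink1 showed the same order at lower values. At 500 UMIs it was held by 17.7%, 19.4% and 31.4% of cold fresh and 61.2%, 66.2% and 81.6% of cold fixed endothelial-like barcodes, and by 92.8% to 93.4% of cold fresh proximal tubule-like barcodes. In warm cells the shares of endothelial-like barcodes were 11.7%, 33.1% and 15.5% fresh and 37.8%, 57.9% and 54.5% fixed. No fixed library overlapped a fresh one in either protocol. The percentages of endothelial-like and macrophage-like barcodes with a UMI lay close together. Whether any of these UMIs came from expression in those classes was not tested.

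**Figure D3:**
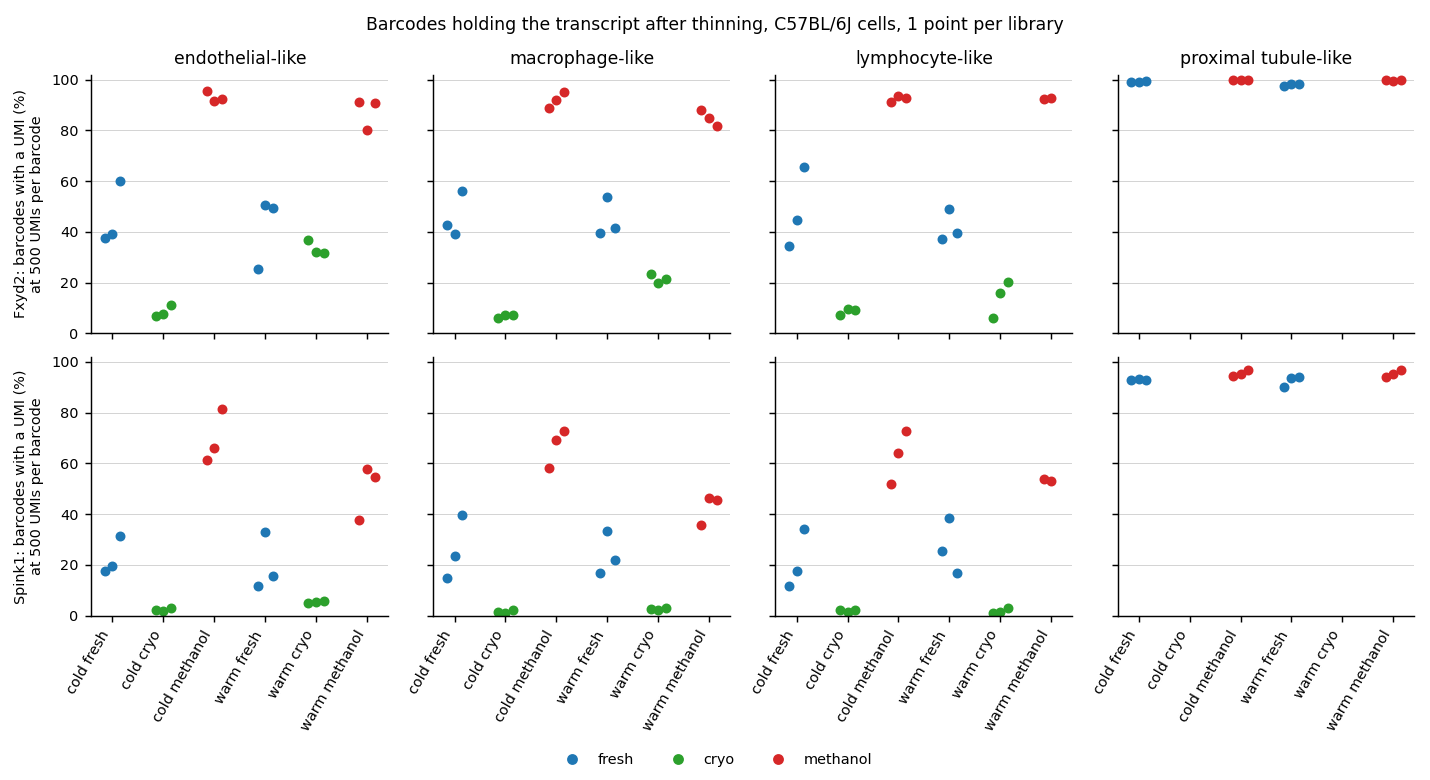
Percentage of barcodes holding Fxyd2 or Spink1 after thinning to 500 UMIs per barcode, in endothelial-like, macrophage-like, lymphocyte-like and proximal tubule-like classes of C57BL/6J cells, 1 point per library. Fixed endothelial-like barcodes reach 80.0% to 95.5% for Fxyd2, fresh ones 25.5% to 59.9% and cold cryopreserved ones 7.04% to 11.2%.

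The Fxyd2 UMIs of cold fixed cells were spread over many barcodes. The 5% of cold fixed endothelial-like barcodes with the highest counts held 13.8% to 29.7% of the Fxyd2 UMIs, and the median barcode had a share of 46.4 to 58.7. In cold fresh cells these barcodes held 24.8% to 40.7% and the median was 6.75 to 15.5. In warm fixed cells, with few endothelial-like barcodes, they held 20.7% to 46.7%. In cold cryopreserved cells they held 40.5% to 81.3% and the median barcode had 0. There 858 endothelial-like barcodes held 394 Fxyd2 UMIs, while 481 cold fixed ones held 3525. So few UMIs per barcode can alone give a median of 0 and a high part in the top barcodes. When the endothelial-like barcodes of a library were split at their median depth, the shallower ones had the higher summed share of Spink1, Fxyd2, Tmem27 and Ttr in 22 of 39 libraries.

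In cold C57BL/6J cells the mean proportions between the transcripts were similar in the 3 non-tubule classes examined and lower than in the proximal tubule. In cold fixed cells there were 0.394 ± 0.10 Spink1 UMIs per Fxyd2 UMI in endothelial-like, 0.400 ± 0.0092 in macrophage-like and 0.401 ± 0.076 in lymphocyte-like barcodes, but 0.550 ± 0.044 in proximal tubule-like ones. Tmem27 gave 0.0931 ± 0.010, 0.0933 ± 0.0075 and 0.0917 ± 0.021 in the 3 non-tubule classes and 0.211 ± 0.022 in the proximal tubule-like class. Cold fresh cells had 0.434 ± 0.045, 0.384 ± 0.089 and 0.381 ± 0.063 Spink1 UMIs per Fxyd2 UMI in the non-tubule classes and 0.633 ± 0.046 in the proximal tubule-like one. Their Tmem27 UMIs per Fxyd2 UMI were 0.109 ± 0.049, 0.0947 ± 0.0087 and 0.124 ± 0.070, against 0.184 ± 0.015. For Tmem27 the lymphocyte-like libraries, at 0.0713 to 0.204, overlapped the proximal tubule-like ones, at 0.168 to 0.199. Male Balb/c fresh cells were less even, with 0.416 ± 0.087 in endothelial-like, 0.266 ± 0.029 in macrophage-like and 0.255 ± 0.033 in lymphocyte-like barcodes (2 libraries for the last), against 0.568 ± 0.14 in proximal tubule-like ones. Fxyd2, unlike Spink1 and Tmem27, was also abundant in distal classes, as given above.

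The nuclei protocols of female Balb/c kidneys were the other contrast that chose the transcripts. In endothelial-like nuclei the share of Tmem27 was 0.997, 1.21 and 0.670 after 3x500g, 5.32, 4.37 and 5.12 after 1x2000g and 2.54, 2.48 and 2.07 after the sucrose gradient. Spink1 was at 0.583, 0.487 and 0.309 after 3x500g, at 2.51, 1.76 and 2.101 after 1x2000g and at 0.874, 1.09 and 0.850 after sucrose. For both, the 3 protocols did not overlap and 1x2000g was highest. Against 3x500g the ratio of the means was 5.15 for Tmem27 and 4.62 for Spink1 with 1x2000g, and 2.47 and 2.04 with sucrose.

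Fxyd2 separated 1x2000g from the other protocols only. It stood at 2.83, 2.49 and 2.02 after 3x500g, at 6.95, 5.54 and 6.67 after 1x2000g, a ratio of 2.61, and at 2.53, 2.37 and 2.06 after sucrose, a ratio of 0.947 with overlap. Itm2b, with 2.92, 2.93 and 2.46 after 3x500g, was at 8.10, 8.29 and 8.81 after 1x2000g and at 9.01, 9.50 and 7.03 after sucrose, ratios of 3.03 and 3.07. Ttr had ratios of 4.68 and 2.80 at shares below 0.6. Itm2b was thus higher than after 3x500g with both other protocols, which overlapped each other.

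In proximal tubule-like nuclei the ratios of 1x2000g to 3x500g were smaller than in endothelial-like nuclei, at 2.63 for Tmem27, 1.87 for Spink1, 1.74 for Fxyd2, 2.69 for Itm2b and 2.22 for Ttr. For sucrose they were 2.01 for Tmem27, 1.55 for Spink1, 1.23 for Fxyd2, 2.82 for Itm2b and 1.57 for Ttr. The transcripts were low in the nuclei of their own class, where Fxyd2 stood at 2.76, 2.79 and 2.71 after 3x500g, against 97.1, 99.0 and 104 in proximal tubule-like fresh cells of the same strain and sex. Nuclei and cells were counted over different reads (exons and introns against exons), which cannot be told apart from the assay here.

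The endothelial-like share was closer to that of the proximal tubule in female nuclei than in female fresh cells, and on average was above it for Fxyd2 after 1x2000g. For Fxyd2 it was 88.8% ± 14.1 of the proximal tubule-like share after 3x500g, 133% ± 8.06 after 1x2000g and 68.2% ± 4.15 after sucrose, against 11.3% ± 3.7 in female fresh cells. Spink1 was at 31.1% ± 12, 75.1% ± 17 and 41.8% ± 11 in the nuclei and at 6.09% ± 2.1 in fresh cells. Tmem27 was at 46.8% ± 16, 89.7% ± 7.5 and 56.3% ± 2.0 in the nuclei and at 5.14% ± 1.5 in fresh cells. The class with the most Fxyd2 in 3x500g nuclei was the thick ascending limb at 11.4 ± 0.83, followed by the distal convoluted and connecting tubule at 10.1 ± 0.49, so the proximal tubule was not the class with its highest share there.

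**Figure D4:**
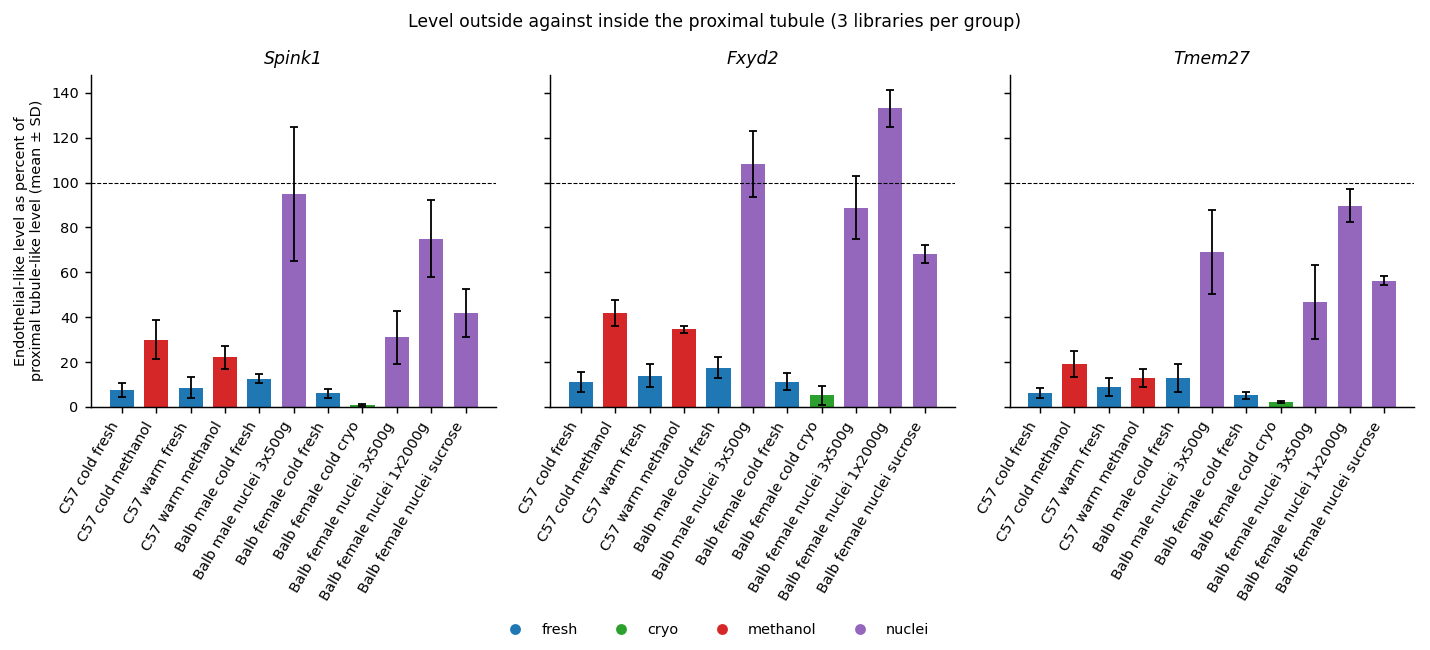
Share in endothelial-like barcodes as a percentage of the share in proximal tubule-like barcodes of the same library, for Spink1, Fxyd2 and Tmem27, as bars of the mean with the SD over 3 libraries in groups with proximal tubule-like barcodes, and with a dashed line at equal shares. Female nuclei of the 1x2000g protocol lie at 133% for Fxyd2 on average, fixed cold cells at 41.9% and fresh cold cells at 11.1%.

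At 500 UMIs per barcode 11.9%, 8.02% and 7.80% of endothelial-like nuclei held Fxyd2 after 3x500g (2604 kept), 30.1%, 24.6% and 29.6% after 1x2000g (4272 kept) and 9.84%, 11.7% and 8.61% after sucrose, and no 3x500g or 1x2000g nucleus was left out. The proximal tubule-like nuclei, whose cells make the transcript, gave 13.9%, 12.6% and 13.6% after 3x500g, 22.9%, 20.8% and 23.6% after 1x2000g and 16.7%, 16.7% and 16.6% after sucrose. Tmem27 UMIs per Fxyd2 UMI were 0.774 ± 0.012 in endothelial-like and 1.15 in proximal tubule-like nuclei of the 1x2000g protocol. The 14 abundant proximal tubule transcripts other than the members summed to 17.2 to 19.96 in endothelial-like nuclei after 3x500g, to 61.0 to 80.6 after 1x2000g and to 28.3 to 35.2 after sucrose, in the order of Spink1 and Tmem27. The markers of the proximal tubule, which the gate itself limits in this class, summed to 14.6 to 16.1, 15.0 to 17.9 and 13.6 to 18.4.

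Warm against cold dissociation of fresh cells was not used to choose the transcripts, though it shares the fresh libraries with the methanol contrast. edgeR called 0 of 5 members tested in endothelial-like barcodes, where 1.58% of all genes tested were called, and 0 of 5 in macrophage-like barcodes, where 3.73% were. It called 0 of 4 in lymphocyte-like barcodes and 0 of 5 in proximal tubule-like barcodes, against 5.27% and 9.96% of all genes. At an unadjusted p under 0.05 there were 0 members in the 3 non-tubule classes and 1, Itm2b, in the proximal tubule-like class, and DESeq2 called 0 in all 4. The fresh shares given above overlapped between the protocols for every transcript in endothelial-like barcodes. In endothelial-like barcodes the first cold library was the lowest of its group in Spink1 and the highest in Itm2b. Without that library 1 member, not named here, was called in endothelial-like and 1 in macrophage-like barcodes.

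Cryopreserved cold-dissociated C57BL/6J cells carried far less Spink1, Tmem27 and Fxyd2 in non-tubule barcodes than the fresh cells. Endothelial-like Spink1 was at 3.74, 5.67 and 9.39 fresh and at 0.280, 0.388 and 0.429 cryopreserved. Tmem27 was at 0.0621, 0.143 and 0.143 cryopreserved, and Fxyd2 at 1.15, 2.37 and 6.89. No cryopreserved library overlapped a fresh one for these 3. On the log2 scale Spink1 fell by 4.07 ± 0.35 (SE, adjusted p = 8.21e-07, edgeR), Tmem27 by 3.45 ± 0.37 (adjusted p = 1.11e-05) and Fxyd2 by 1.99 ± 0.44 (adjusted p = 0.0097). These were 3 of the 4 members tested, where 2.42% of all genes were called lower and the median of all genes was -0.03. Itm2b, at 29.8, 23.3 and 25.0 cryopreserved, did not pass the test (adjusted p = 0.817). The fresh libraries are those of the methanol contrast.

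The Fxyd2 call was the least stable of the 3. DESeq2 called the other 2 members only (adjusted p = 0.217 for Fxyd2), and without the second cryopreserved or the third fresh library the adjusted p of Fxyd2 was 0.0977 or 0.0519. Ttr was too low for the test. Its 55 UMIs in fresh endothelial-like barcodes stood against 0 in the cryopreserved ones, so it was at least 24.5-fold lower, with the floor set at 3 counts over the group. In the same way Ttr was at least 30.3-fold lower in macrophage-like barcodes (54 UMIs fresh) and at least 9.28-fold lower in lymphocyte-like barcodes (21 UMIs fresh), counting error only.

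In macrophage-like barcodes the same 3 transcripts fell. The share of Fxyd2 was 11.8, 17.2 and 23.6 fresh and 2.00, 1.54 and 1.63 cryopreserved, and it fell by 3.23 ± 0.23 (adjusted p = 1.63e-08). Spink1 went from 3.30, 7.39 and 10.4 to 0.217, 0.269 and 0.319 and fell by 4.59 ± 0.36, and Tmem27 fell by 4.91 ± 0.39 (adjusted p = 5.35e-08 for both). These were 3 of 4 members tested, with 5.65% of all genes called lower. Lymphocyte-like barcodes showed the same 3 transcripts lower of 4 tested, by 3.84 ± 0.41 for Spink1, 2.58 ± 0.39 for Fxyd2 and 3.69 ± 0.40 for Tmem27 (adjusted p of 1.22e-05, 0.000405 and 1.35e-05), with 3.6% of all genes called lower. The counts behind the low shares were small. Tmem27 had 14 UMIs over the cold cryopreserved libraries against 120 fresh in endothelial-like, 9 against 189 in macrophage-like and 7 against 81 in lymphocyte-like barcodes, and Spink1 had 43 against 590, 49 against 824 and 24 against 298. Such a gene can pass the filter on low counts through the fresh libraries alone, which favors a fall among the members tested, so the counts of members called lower are no support beyond the values themselves.

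Proximal tubule-like barcodes were nearly gone after cryopreservation, with 1 of 3519 barcodes (0.0284%) in cold and 0 of 3483 in warm cryopreserved C57BL/6J libraries, against 39.4% in cold fresh ones. Within endothelial-like barcodes the 15 proximal tubule markers summed to 4.43 to 7.07 in cold fresh cells and to 0.0612 to 0.0857 in cold cryopreserved cells, where 13 of them were at 0. Hemoglobin transcripts moved with them, from 39.1 to 342 fresh to 0.0311 to 0.829 cryopreserved. The part of the lost proximal tubule cells and of the storage steps in the lower shares was not tested.

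With warm dissociation Fxyd2 did not pass the test in endothelial-like barcodes. Its share was 11.3, 23.9 and 16.4 fresh and 19.2, 24.1 and 15.7 cryopreserved, overlapping, with a log2 difference of 0.32 ± 0.22 (adjusted p = 0.423). Spink1 went from 3.44, 11.4 and 4.82 to 2.08, 0.787 and 2.09 and fell by 1.94 ± 0.42 (adjusted p = 0.0125), and Tmem27 from 1.05, 2.50 and 1.98 to 0.446, 0.177 and 0.198 and fell by 2.83 ± 0.36 (adjusted p = 0.000327). Itm2b, from 37.1, 32.3 and 38.9 to 22.6, 26.6 and 24.6, fell by 0.40 ± 0.10 (adjusted p = 0.0241). Groups did not overlap for the 3 transcripts called, out of 4 tested, with 2.98% of all genes called lower. The warm fresh libraries are likewise those of the methanol contrast. Tmem27 had 30 UMIs cryopreserved against 176 fresh. The limit of the filter stated for cold cells applies here, so this count of members is no support beyond the values themselves.

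Of these calls Tmem27 alone also passed with DESeq2 and with the suspension as a replicate block. Under the block Spink1 was at -1.80 (adjusted p = 0.0901) and Itm2b at -0.39 (adjusted p = 0.0760), and without barcodes that held markers of a second class Spink1 was at -0.81 (adjusted p = 0.190). Without the second warm fresh library Fxyd2 rose by 0.67 (adjusted p = 0.0297). Without the third warm cryopreserved library 1 member was called.

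In warm cryopreserved endothelial-like barcodes the 5% with the highest counts held 50.5% to 66.2% of the Fxyd2 UMIs, against 45.1% to 49.3% in warm fresh ones. Without these barcodes the cryopreserved share was 8.09 to 10.4, with a median barcode at 0 to 5.96, and the fresh share 6.56 to 14.4, with a median barcode at 6.64 to 13.9, so the shares without them overlapped. At 500 UMIs 36.7%, 31.9% and 31.7% of these barcodes held Fxyd2, against 25.5%, 50.4% and 49.5% fresh. Distal tubule transcripts other than Fxyd2 summed to 34.9 to 54.5 in the same barcodes, against 8.93 to 40.3 in warm fresh and 1.90 to 5.73 in cold cryopreserved ones. Their part in the Fxyd2 share was not tested.

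In macrophage-like and lymphocyte-like barcodes of warm cells Fxyd2 did fall. It went from 15.9, 26.0 and 18.2 to 5.95, 5.76 and 5.47 in macrophage-like barcodes, a fall by 1.65 ± 0.18 (adjusted p = 4.19e-05), beside 3.06 ± 0.38 for Spink1 and 3.66 ± 0.38 for Tmem27 (adjusted p of 0.000143 and 3.27e-05), that is 3 of 4 members tested against 5.62% of all genes. In lymphocyte-like barcodes it went from 8.68, 20.5 and 11.8 to 2.24, 3.88 and 6.04 and fell by 1.63 ± 0.38 (adjusted p = 0.0250), and Spink1 fell by 3.68 ± 0.50 (adjusted p = 0.00289), 2 of 3 tested against 3.75%. The lymphocyte-like call of Fxyd2 was lost without the second fresh or the first or second cryopreserved library, leaving 1 member called. Tmem27 had 16 UMIs cryopreserved against 218 fresh in macrophage-like barcodes, and Spink1 19 against 274 in lymphocyte-like ones. With the limit of the filter stated for cold cells, these counts of members are likewise no support beyond the values themselves.

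Whether the change on cryopreservation differed between the dissociation protocols was tested as an interaction in endothelial-like barcodes. The fresh libraries are again those of the methanol contrast. edgeR called 0 of 5 members, with 0.338% of all genes called in either direction. At an unadjusted p under 0.05 there were 2 members, and DESeq2 called 0. The interaction of Fxyd2 was 2.31 ± 0.59 on the log2 scale (adjusted p = 0.129) and that of Spink1 2.13 ± 0.68 (adjusted p = 0.265), warm minus cold. Both passed without barcodes holding a second class, at 2.54 (adjusted p = 0.0150) and 3.05 (adjusted p = 0.0141). Fxyd2 also passed without the third cold cryopreserved library, at 3.27 (adjusted p = 0.00210), and Spink1 without the second warm fresh library, at 2.87 (adjusted p = 0.0201).

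**Figure D5:**
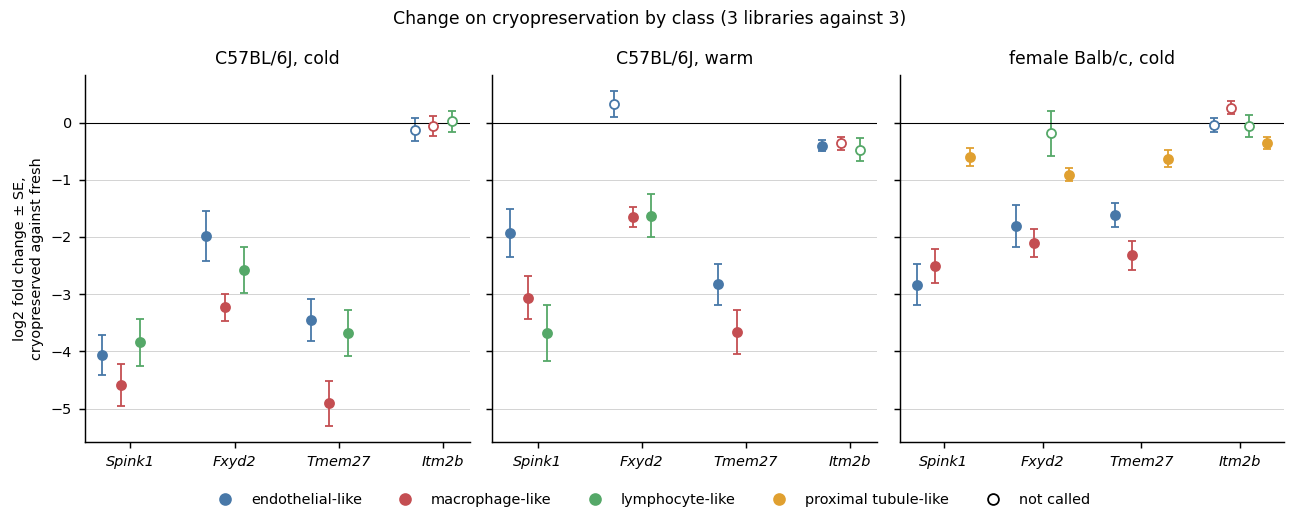
Log2 fold change with its standard error, cryopreserved against fresh, for Spink1, Fxyd2, Tmem27 and Itm2b where tested in endothelial-like, macrophage-like and lymphocyte-like barcodes of cold C57BL/6J, warm C57BL/6J and female Balb/c cells and in proximal tubule-like barcodes of the last, with open symbols for values not called. Spink1 lies between -4.59 and -1.94 in the fits of C57BL/6J cells, and Fxyd2 of warm endothelial-like barcodes lies at 0.32.

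Female Balb/c cells allowed the same test with libraries outside the contrasts that chose the transcripts, namely methanol fixation and nuclei protocols. The members were still chosen with earlier results of these data known. In endothelial-like barcodes Spink1 was at 1.10, 2.23 and 1.78 fresh and at 0.419, 0.182 and 0.0995 cryopreserved and fell by 2.83 ± 0.35 (adjusted p = 0.000925). Tmem27 went from 1.33, 2.20 and 1.56 to 0.491, 0.651 and 0.531 and fell by 1.62 ± 0.21 (adjusted p = 0.00128). Fxyd2 went from 9.32, 15.5 and 9.11 to 5.87, 2.22 and 1.56 and fell by 1.81 ± 0.37 (adjusted p = 0.0225). Groups did not overlap for these 3 of 5 members tested, and 0.988% of all genes were called lower. Spink1 had 47 UMIs cryopreserved against 324 fresh. The limit of the filter stated for cold C57BL/6J cells applies to this count of members too. Itm2b, at 23.0, 25.1 and 24.2 fresh and 22.1, 21.7 and 26.9 cryopreserved, and Ttr, at 0.319 or less in every library, did not pass (adjusted p of 0.934 and 0.125). The Fxyd2 call was lost with DESeq2 (adjusted p = 0.277) and without 4 of the 6 libraries in turn, with adjusted p of 0.0540 to 0.184, the libraries being the first and the second fresh and the second and the third cryopreserved.

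Female macrophage-like barcodes gave 3 of 4 members lower, with 3.56% of all genes called lower. Fxyd2 went from 13.9, 27.5 and 14.5 to 5.15, 3.82 and 4.22 and fell by 2.101 ± 0.245 (adjusted p = 9.45e-05). Spink1 fell by 2.51 ± 0.30 (adjusted p = 0.000145) and Tmem27 by 2.32 ± 0.26 (adjusted p = 6.65e-05), both without overlap of the groups. Spink1 had 35 UMIs cryopreserved against 226 fresh, so the limit of the filter applies to this count of members as well. In lymphocyte-like barcodes 2 members could be tested and edgeR called 0, with 1.48% of all genes called, 0 at an unadjusted p under 0.05 and 0 by DESeq2. There the first cryopreserved library stood apart in Fxyd2, at 10.9 beside 3.49 and 2.65, against 6.30, 9.09 and 5.40 fresh.

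The female cryopreserved libraries kept proximal tubule-like barcodes, 7.09% of all barcodes against 39.6% fresh, or 101, 131 and 71 per library. Per the paper they had a shorter storage and faster spins than the C57BL/6J ones. These changes and the other differences between the sets cannot be told apart. In the female proximal tubule-like barcodes themselves all 5 members were called lower, with 12.9% of all genes called lower. Fxyd2 went from 97.1, 99.0 and 104 to 58.8, 70.1 and 64.7 and fell by 0.91 ± 0.11 (adjusted p = 2.25e-05). Ttr went from 6.95, 5.17 and 5.30 to 0.599, 2.25 and 5.56, which overlap, and fell by 1.46 ± 0.35 (adjusted p = 0.00624), a call lost with DESeq2 (adjusted p = 0.250). Tmem27 fell by 0.63 ± 0.16, Spink1 by 0.60 ± 0.16 and Itm2b by 0.36 ± 0.11 (adjusted p of 0.00746, 0.0123 and 0.0226), and for these the cryopreserved and fresh shares overlapped. Scaling by library totals alone left 2 of the 5 calls, since Spink1, Tmem27 and Itm2b then had adjusted p of 0.135, 0.0891 and 0.580, and leaving out the second or the third fresh library left 3.

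The endothelial-like share as a percentage of the proximal tubule-like share was 0.963% ± 0.41 for Spink1 in cryopreserved female cells against 6.09% ± 2.1 in fresh ones. For Tmem27 it was 2.21% ± 0.32 against 5.14% ± 1.5. For Fxyd2 it was 5.19% ± 4.2 against 11.3% ± 3.7, which overlap in their spread.

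Male Balb/c nuclei were compared with cells, likewise with libraries outside the contrasts that chose the transcripts, and held far less of every member in the tubule class. In proximal tubule-like barcodes Fxyd2 was at 133, 142 and 114 in cells and at 9.29, 7.77 and 7.53 in nuclei, and Spink1 at 62.4, 72.1 and 82.7 and at 5.86, 3.58 and 4.12. All 5 members were called lower in nuclei, with 25.8% of all genes called lower and a median of all genes of 0.85 on the log2 scale. Spink1 fell by 4.39 ± 0.26, Fxyd2 by 4.38 ± 0.26, Ttr by 3.68 ± 0.28, Tmem27 by 3.46 ± 0.25 and Itm2b by 2.43 ± 0.27, with adjusted p between 1.09e-09 and 1.11e-06. Groups did not overlap for any of the 5.

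In endothelial-like barcodes of the same libraries, of which the third cell library gave 47, the shares were closer. Fxyd2 was at 17.1, 24.5 and 25.6 in cells and at 9.41, 7.65 and 9.44 in nuclei and fell by 0.96 ± 0.30 (adjusted p = 0.00507). Itm2b was at 33.0, 28.2 and 17.1 in cells and at 13.4, 4.65 and 5.20 in nuclei and fell by 1.42 ± 0.36 (adjusted p = 0.000774). These were 2 of 5 members, near the 36.5% of all genes called lower in this fit. Spink1, at 7.80, 7.76 and 12.2 in cells and 7.58, 2.73 and 3.27 in nuclei, Tmem27 and Ttr did not pass (adjusted p of 0.155, 0.773 and 0.351).

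The first nuclei library was the highest of its group in Spink1, Tmem27, Itm2b and Ttr, and without it 4 members were called, while without the second nuclei library 1 was. The Fxyd2 call was lost with RLE size factors, at -0.39 (adjusted p = 0.199), and with DESeq2. As a percentage of the proximal tubule-like share, endothelial-like Fxyd2 was at 17.5% ± 4.8 in cells and 108% ± 15 in nuclei, Spink1 at 12.7% ± 2.0 and 95.0% ± 30, and Tmem27 at 12.8% ± 6.2 and 69.1% ± 19. Proximal tubule markers, which the gate limits, summed to 4.87 to 6.67 in endothelial-like cells and to 24.2 to 28.7 in endothelial-like nuclei, and the 14 abundant proximal tubule transcripts to 94.4 to 140 and 53.3 to 102.2, and their part in these values was not tested.

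Other tubule transcripts were read from lists chosen with earlier results of these data known. Of 14 abundant proximal tubule transcripts, 13 could be tested in cold C57BL/6J endothelial-like barcodes and all 13 fell on cryopreservation, where 2.42% of all genes were called lower, with a median of -3.71, among them Pck1 at -7.19 and Gpx3 at -4.04. In warm cells 12 of 13 tested fell (2.98% of all genes) with a median of -2.55. In female cells 9 of 12 fell (0.988% of all genes) with a median of -1.64. Genes this low after cryopreservation can likewise pass the filter through the fresh libraries alone, which favors a fall. The counts called lower in this paragraph are therefore no support beyond the values themselves. Of the 8 distal tubule transcripts 3 were tested in cold endothelial-like barcodes and none passed, and in warm ones 1 of 8, Klk1, rose by 1.06 with a list median of 0.87, where 5.61% of all genes were called higher. In female ones 1 of 8, Calb1, fell by 2.66. Macrophage-like barcodes gave other counts for the distal list, of which 7 of 8 tested fell in cold cells (5.65% of all genes called lower) with a median of -2.14, and 6 of 8 in female cells (3.56%) with a median of -2.55. In warm macrophage-like barcodes 12 of 13 proximal transcripts fell (5.62% of all genes) with a median of -3.77, while of the 7 distal ones tested none fell and 1, Aqp2, rose by 3.60 (8.27% of all genes called higher), with a median of -0.11. The difference between the lists was not tested.

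Fxyd2 is a subunit of the sodium pump, and the other pump genes were read beside it. Of 9 pump and FXYD genes 5 were tested in cold endothelial-like barcodes, and 1 passed, Fxyd5, which rose by 0.62, where 3.36% of all genes were called higher. The list summed to 9.64 to 11.6 in fresh, 11.2 to 14.1 in fixed and 10.1 to 11.2 in cryopreserved cold endothelial-like barcodes. These cold ranges lie close together, while proximal tubule transcripts went from 55.5 to 96.0 fresh to 178 to 261 fixed and 8.33 to 9.01 cryopreserved. In warm endothelial-like barcodes the pump list spread more widely, at 8.82 to 22.1 fresh, 12.3 to 21.8 fixed and 16.9 to 22.7 cryopreserved. Of 5 relatives of the members 1 was tested in cold endothelial-like barcodes and did not pass.

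Over the 39 10x libraries the endothelial-like shares of the members went with different genes, given here by Pearson's r on the log2 scale among 1947 genes, as a description in which the libraries share depth, chemistry and set of mice. Spink1 was closest to Acy3 (0.930), Gpx3 (0.925) and Ttc36 (0.922), and Ttr to Gpx3 (0.859), Guca2b (0.838) and Acy3 (0.833). Tmem27 was closest to Fbp1 (0.867), Gpx3 (0.854) and Slc34a1 (0.824). Fxyd2 was closest to Ldhb (0.961), Prdx5 (0.905) and Mdh1 (0.903). Itm2b was closest to Tmem59 (0.977), Ly6c1 (0.974) and Tmem50a (0.973), of which Ly6c1 is an endothelial surface protein.

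The bulk libraries showed small differences between protocols beside those of the non-tubule barcodes. Tmem27 was at 1203, 1321 and 1210 CPM in cold and at 1070, 1010 and 1061 in warm C57BL/6J suspensions and fell by 0.27 ± 0.07 (adjusted p = 0.0344), 1 of 5 members, with 3.05% of all genes called lower. The groups did not overlap, yet the call was lost without any of 5 of the 6 libraries, the first cold one being the exception, and 0 members were then called. Ttr was at 125, 101 and 159 in female suspensions and at 69.4, 52.2 and 93.8 in intact female kidneys and fell by 0.84 ± 0.20 (adjusted p = 0.019), 1 of 5 members against 8.23% of all genes. That call was lost without the first or the third suspension or the first or the second intact library, with 0 members called. Spink1, Fxyd2 and Itm2b passed in neither bulk comparison.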

How the data were processed

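Kidney cells, nuclei and bulk RNA were sequenced. The authors deposited UMI counts per gene and barcode for the 10x libraries (Cell Ranger 2.1.1, mm10, exonic reads for cells, exons and introns for nuclei, EmptyDrops and filters on genes and mitochondrial share) and featureCounts read counts for bulk libraries (STAR 2.6.1a, GRCm38; ribosomal depletion, or poly(A) selection for the females), per the paper's methods and the submitters' processing notes. The strandedness of the counting was not given in the sources used here.

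Barcodes were gated on marker lists, mitochondrial genes were left out of totals, and UMIs were summed per library and class. For libraries with at least 10 barcodes of a class, edgeR 4.0.16 was fitted to these sums, and likewise to the bulk data, with its quasi-likelihood model (R 4.3.3, TMM, filterByExpr, only the groups compared, and 4 groups for the interaction), with Benjamini-Hochberg adjustment over all genes of a fit and a call at 0.05. Of 23 fits 19 were run, since 4 had too few barcodes. The fits were tested on simulated counts. Alternatives included DESeq2 1.42.0, RLE factors, no filter, other gates and leaving out each library. Floors cover counting error only, while the SDs and SEs given include the spread between libraries. Gene positions and lengths came from GENCODE vM21.

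C57BL/6J barcode headers carry a number and a letter. Fresh, cryopreserved and fixed libraries with the same number and letter were taken as aliquots of 1 suspension, which pairs them, while warm and cold libraries share the number only, whose meaning the headers do not give. The paper also describes the female fresh and cryopreserved samples as aliquots, and the female fits took no pairing into account. Deviations of same-numbered libraries correlated with r of -0.04 to 0.21 over 18 pairs of cryopreserved and fresh sums, and of -0.13 to 0.18 over 9 of warm and cold ones. The members and lists were chosen with earlier results of these data known. Named were the members, up to 3 called genes of each other list with the largest change, and the 3 genes closest to each member. Some genes that this rule would name are not reported here.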

Additional observations from a re-analysis of the deposited data

How the results depend on the processing

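Alternatives were run for the fold changes of members named with a value, and none of these reversed. Of 654 such recomputed fold changes, 591 kept their side of the threshold, 56 lost it and 7 gained it, and of 366 recomputed counts and ratios 322 stayed within 1.5 times or 1 SD. The cause of the changes was not tested. Members called in warm cryopreserved endothelial-like barcodes numbered 1 instead of 3 with DESeq2 and 1 with the replicate block, which was added after seeing the data. The block changed no other count of calls by over 1.5 times. In female lymphocyte-like barcodes 1 member instead of 0 was called without a filter, and 1 without barcodes of a second class. In female proximal tubule-like barcodes 2 instead of 5 were called with library totals and 1 with a fold threshold of 1 on the log2 scale. Male nuclei against cells in endothelial-like barcodes gave 1 instead of 2 with DESeq2, RLE factors, no filter, the fold threshold, a gate of 4 markers, or no barcodes of a second class, and 4 when tubule markers were not counted or without nuclei library 1 and cell library 3. The interaction gave 2 instead of 0 with no filter and 2 without barcodes of a second class. Bulk warm against cold gave 2 instead of 1 with no filter and 0 with the fold threshold. Bulk intact against suspension gave 2 instead of 1 with library totals and 0 with the fold threshold. The log2 ratio of the summed members was 1.06 over all non-tubule barcodes against 1.29 for methanol and cold dissociation, and in macrophage-like barcodes 2.41 against 1.73 for 1x2000g nuclei and 1.73 against 1.10 for sucrose nuclei, where 3x500g gave 8 to 16 such barcodes per library.

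Leaving out each library in turn gave 0 to 1 members called for warm against cold in endothelial-like and in macrophage-like barcodes, 1 to 4 for warm cryopreserved endothelial-like, 1 to 3 for lymphocyte-like, 3 to 5 for female proximal tubule-like, 1 to 4 for male endothelial-like barcodes, 0 to 1 for the interaction and 0 to 1 for each bulk comparison. Ttr was too low for the test in several classes, and groups of 3 libraries limit the power of every test.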
